A study of Saccharomyces cerevisiae with 12 samples.

Results

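Transcript levels were examined for 10 regulators of the genes that build ribosomes in budding yeast: *IFH1*, *FHL1*, *SFP1*, *RAP1*, *HMO1*, *SCH9*, *CRF1*, *STB3*, *DOT6* and *TOD6*. They were chosen by name as rows of the gene count table, 10 of its 7114 features. The series compared the transcriptome of *Saccharomyces cerevisiae* lacking *ULP2*, which encodes a SUMO protease that removes SUMO chains from proteins, before and after long passage. The 4 groups had 3 libraries each, all from the strain MHY1379 background growing exponentially in rich YPD medium. WT was MHY1379, which the study's legend describes as *ulp2Δ* cells that keep *ULP2* on a plasmid, so the chromosomal deletion is shared by all 4 groups. Nascent *ulp2Δ* cells had recently lost that plasmid. The remaining groups, line 6 and line 9 (*ulp2Δ* 500G #6 and #9), had been passaged for 500 generations without Ulp2, and each stands for 1 evolved line. The study describes both of its sequenced evolved lines as carrying the same point mutation in the SUMO-activating enzyme subunit Uba2. It gives 1 of them a further Uba2 mutation. The labels give only line numbers, so which line carries the further mutation was not assigned here.

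Growing yeast spend much of their transcription on ribosomes, and the genes concerned fall into 2 regulons. Ribosomal protein genes are bound by Rap1, Fhl1 and the co-activator Ifh1, while the genes for ribosome assembly factors (ribosome biogenesis genes) carry the promoter elements PAC and RRPE, which are read by the repressors Dot6, Tod6 and Stb3. Nutrient signals reach both regulons through protein kinases, among them Sch9, which phosphorylates the repressors and keeps them off their targets. These proteins are controlled largely by phosphorylation and by their place in the cell, which transcript counts do not measure.

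The libraries held 20467216 to 30719553 counts on named genes. *ULP2* had 8519 to 10694 counts in the WT libraries and 3 to 20 in the 9 *ulp2Δ* libraries. In nascent cells the genes of chromosomes I and XII had median log2 fold changes against WT of 0.68 and 0.69, and those of the other nuclear chromosomes a median of -0.12, which touches the 2 regulators on chromosome XII, *IFH1* and *SFP1*. Among features with at least 200 counts in some library, 33 differed more than 8-fold within a group, with 5 counts added to each. *IFH1* was one of them. Fold changes are log2 ratios from the quasi-likelihood test of edgeR, Benjamini-Hochberg adjusted over 6372 genes, given with their standard errors (SE), and "rose" and "fell" mean an adjusted p under 0.05. Levels are in CPM, counts normalized to library size, after TMM scaling, which corrects for differences in library composition. In bulk RNA, fewer cells with a transcript and less of it per cell cannot be told apart.

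The elements these factors read are shown first, since both the regulators' own promoters and those of their targets are grouped by them. PAC was searched as CGATGAG, RRPE as TGAAAA then any base then TTT, the Rap1 element as CACCC then any 2 bases then ACA, and the Fhl1 element as GACGCA, on both strands of the 500 bases before each start codon in the R64 genome (the sacCer3 assembly). Matches to PAC and RRPE cannot overlap, whereas a Rap1 and a Fhl1 match can share 2 bases. PAC was found in 9.48% of 6021 promoters of protein-coding genes and in 63.4% of 142 biogenesis promoters. RRPE was found in 8.55% of all promoters and 69.7% of biogenesis promoters. Of the 10 regulators, *SCH9*, *DOT6* and *TOD6* held PAC, and none held one of the other 3 elements. Their matches are shown with capitals marking PAC, at chrVIII:508868-508896 for *SCH9*, chrV:335226-335254 for *DOT6* and chrII:117352-117381 for *TOD6*, each written 5′ to 3′ on the strand of its gene.
SCH9: gttatctgtttCTCATCGgtttcgtttgt
DOT6: gttcatccgacCTCATCGaatagcttccg
TOD6: gCGATGAGatgcgagaccaatgCGATGAGa
The match in *DOT6* began 55 bases before its start codon and that in *SCH9* 484 bases before. *TOD6* held 2 copies, beginning 236 and 215 bases before its start codon, so the gene for a PAC-binding repressor carried its own element 2 times. A match is a description of the letters and not a shown binding site.

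For comparison, target promoters with high WT counts held the following stretches, in which capitals mark PAC and RRPE in the biogenesis genes *EBP2* (chrXI:125630-125658, plus strand) and *NOP58* (chrXV:898466-898494, minus strand), and the Rap1 element in the ribosomal protein genes *RPL25* (chrXV:79940-79969, plus strand) and *RPL36B* (chrXVI:76535-76564, minus strand).
EBP2: actaCTCATCGggacTGAAAATTTTttat
NOP58: AAATTTTTCAacCTCATCGAAAATTTTCA
RPL25: ttatttaataTGTACGGGTGtttacatgga
RPL36B: actgtattttCACCCGTACAtccacggatg
In *NOP58* PAC lay between 2 copies of RRPE and touched one of them. The Rap1 element in this spelling was found in 2.23% of all promoters and 21.2% of 137 ribosomal protein promoters, and the Fhl1 element in 10.9% and 15.3%.

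*IFH1* (YLR223C), the co-activator that joins Fhl1 on ribosomal protein promoters, lies at chrXII:582233-585490 on the minus strand. Its counts were 29, 26 and 27 in WT and 28, 14118 and 37 in nascent cells. They were 5060, 30 and 29 in line 6 and 4861, 5287 and 30 in line 9. The counts thus fell into a set of 8 libraries with 26 to 37 and a set of 4 with 4861 to 14118, the split ran through every *ulp2Δ* group, and all groups overlapped. *UTP13*, which lies 461 bases away on the same strand, had 1238 to 1969 counts in the WT and nascent libraries, 317 to 462 in line 6 and 791 to 1014 in line 9, with no such split. *UCC1*, 973 bases away on the other side, had 4036 to 4942 counts in the nascent libraries and 1010 to 1777 in the other 9. No other annotated feature overlaps *IFH1*.

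For *IFH1* the fit gave log2 fold changes against WT of 7.19 in nascent cells (SE 2.62, adjusted p = 0.0226), 6.01 in line 6 (SE 2.65, adjusted p = 0.0523) and 6.83 in line 9 (SE 2.63, adjusted p = 0.0322). Without nascent replicate 2 the first was 0.29 (adjusted p = 0.955), and without line 6 replicate 1 the second was 0.09 (adjusted p = 0.986). Without line 9 replicate 1 or 2 the third was 6.28 (adjusted p = 0.0585) or 6.54 (adjusted p = 0.0557). Without any 1 of the WT libraries the nascent and line 9 calls were also lost (adjusted p of 0.0668 to 0.0722 and 0.0862 to 0.0922), and under limma voom the values were 3.44 (adjusted p = 0.629) and 4.76 (adjusted p = 0.487). The line 6 value passed without line 6 replicate 2 or 3, any 1 nascent library or line 9 replicate 3 (adjusted p of 0.0145 to 0.0412). In the direct comparisons the fitted value was -1.18 for line 6 and -0.36 for line 9 against nascent cells, and without nascent replicate 2 these became 5.71 (adjusted p = 0.0371) and 6.54 (adjusted p = 0.0197). For line 6 against nascent cells the value was -7.10 (adjusted p = 0.0224) without line 6 replicate 1, and for line 6 against line 9 it moved from -0.82 to -6.74 (adjusted p = 0.0413) without that library. The cause of the split was not tested. All WT libraries lay in the low set, and how counts were assigned to genes is not described. A level of *IFH1* in any group, WT included, can therefore not be read from these counts. For this reason, the counts of regulators called in the fit of all 12 libraries are also given without *IFH1*.

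**Figure D1:**
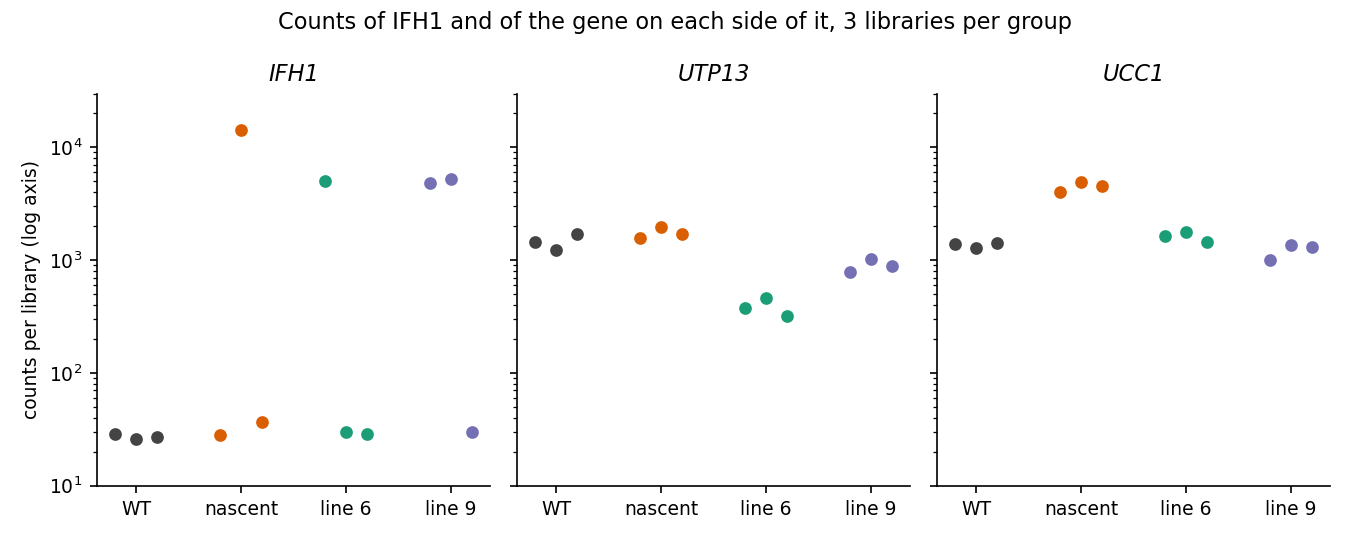
Counts of *IFH1* and of its neighbours *UTP13* and *UCC1* in each library (log axis; points are the 3 libraries of a group, in the order of their replicate numbers). *IFH1* lies at 26 to 37 counts in 8 libraries and at 4861 to 14118 in 4, while neither neighbour is split within a group.

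In nascent *ulp2Δ* against WT, 5 of the 10 regulators were higher (33.6% of all tested genes were) and 3 were lower (39.7%), and without *IFH1* 4 of 9 were higher. In line 6 against WT, 6 were higher (36.8% of tested genes) and 2 lower (37.2%), the same counts with or without *IFH1*. In line 9 against WT, 6 were higher (32.5%) and 2 lower (33.9%), and without *IFH1* 5 of 9 were higher. Against nascent cells, line 6 had 3 higher (40.1%) and 4 lower (38.9%), and line 9 also had 3 higher (38.2%) and 4 lower (37.9%). Between the evolved lines, 3 were higher in line 6 (28.2%) and 2 lower (29.4%). *IFH1* passed in none of these 3 comparisons, so the counts were the same over the 9 others. With most genes past the threshold in most comparisons, a call by itself says little about a regulator, and the sizes of the changes are given for each. Groups did not overlap for 8, 8 and 9 of the 10 regulators in the nascent, line 6 and line 9 comparisons with WT, in which 73.3%, 74% and 66.5% of tested genes were called in either direction and the libraries did not overlap for 76%, 74.9% and 69% of them. They did not overlap for 7 of 10 in line 6 and 8 of 10 in line 9 against nascent cells (79% and 76.2% of tested genes called, 81.3% and 79.3% without overlap) and for 5 of 10 between the lines (57.6% called, 62.3% without overlap). *IFH1* overlapped in every comparison, so the same numbers hold over the 9 other regulators. Besides *IFH1*, a change of 2-fold or more was seen for *DOT6* in nascent cells (6.48% of tested genes rose and 2.67% fell that far), *RAP1* in line 6 against WT (4.5% and 10.5%) and *CRF1* in line 6 against nascent cells (5.23% and 12.6%). No regulator but *IFH1* changed that far in line 9 against WT (1.74% and 4.94%), and none did in line 9 against nascent cells (3.75% and 10.6%) or between the lines (2.07% and 2.35%). Under the alternative settings and leave-outs, the log2 value of *DOT6* in nascent cells was 0.97 to 1.15. That of *RAP1* in line 6 against WT was -1.11 to -0.97, and that of *CRF1* in line 6 against nascent cells 0.90 to 1.16. Each thus fell short of 2-fold in some of them. In others, *SFP1* in nascent cells reached 1.01, and *TOD6* and *RAP1* in line 6 against nascent cells -1.06 and -1.08.

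The activators moved in different directions. *FHL1* (YPR104C, chrXVI:733623-736433, minus strand), the forkhead-like factor that recruits Ifh1, had 45.5, 47.1 and 44.9 CPM in WT, 46.4, 44.7 and 47.3 in nascent cells, 43.6, 45 and 40.5 in line 6 and 44.3, 44 and 43.1 in line 9. Its 12 libraries lay between 40.5 and 47.3 CPM, and the libraries of line 9 were just below all of those of WT and nascent cells. Its log2 fold change against WT was 0.01 (SE 0.05, adjusted p = 0.864) in nascent cells, -0.09 (SE 0.05, adjusted p = 0.0887) in line 6 and -0.07 (SE 0.04, adjusted p = 0.207) in line 9, and it did not pass the test in any of the 6 comparisons. Its calls depended on the scaling and the filter: with library totals it had 0.16 in nascent cells (adjusted p = 0.00541) and -0.19 in line 6 (adjusted p = 0.00126) against WT, and against nascent cells line 6 had -0.35 (adjusted p = 3.6e-06), with -0.26 (adjusted p = 9.62e-05) for line 9. The difference between line 6 and nascent cells passed under 5 further settings of the 11 as well (-0.19 to -0.11, adjusted p of 0.00115 to 0.0337). With scaling factors computed without chromosomes I and XII and the mitochondrial genome, line 9 against nascent cells also passed (-0.16, adjusted p = 0.00441), and with factors computed without ribosomal genes line 6 against WT did (-0.13, adjusted p = 0.0211). Without nascent replicate 2, line 6 replicate 2 or line 9 replicate 1 the difference between line 6 and nascent cells also passed (-0.15 to -0.13, adjusted p of 0.021 to 0.0262), as did line 6 against WT without line 6 replicate 2 (-0.12, adjusted p = 0.0389).

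*SFP1* (YLR403W, chrXII:925568-927619, plus strand) encodes a zinc-finger activator of both regulons that leaves the nucleus when TORC1 or protein kinase A activity drops. It had 54.2, 53.2 and 49.9 CPM in WT, 102, 93.1 and 90.8 in nascent cells, 66.1, 59.1 and 58.8 in line 6 and 60.9, 58.6 and 55 in line 9. All nascent libraries were above every other library, and both evolved lines lay above WT without overlap. *SFP1* rose by 0.86 (SE 0.06, adjusted p = 5.41e-09) in nascent cells, 0.23 (SE 0.06, adjusted p = 0.00395) in line 6 and 0.15 (SE 0.06, adjusted p = 0.0436) in line 9. The last call was lost without WT replicate 2 or 3 or line 9 replicate 1 or 2, with values of 0.12 to 0.16 and adjusted p of 0.0555 to 0.141. With library totals both evolved lines missed the threshold (0.12 each, adjusted p = 0.0879 and 0.107), and line 9 also did with factors computed without ribosomal genes (0.13, adjusted p = 0.0782) and under limma voom (0.15, adjusted p = 0.0532). Against nascent cells it fell by 0.64 in line 6 (adjusted p = 1.11e-07) and by 0.71 in line 9 (adjusted p = 3.53e-08), and the lines differed from each other by 0.08 (SE 0.06, adjusted p = 0.309).

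The rise of *SFP1* in nascent cells was close to that of its chromosome. The median over the other 501 tested genes of chromosome XII was 0.69 there, with quartiles of 0.40 and 1.02, and *SFP1* exceeded the median by 0.17 and stood above 65.7% of them. In line 6 and line 9, where the chromosome's medians were -0.06 and -0.05, *SFP1* exceeded them by 0.29 and 0.20. The part of the chromosome-wide shift in the level of *SFP1* was not tested.

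**Figure D2:**
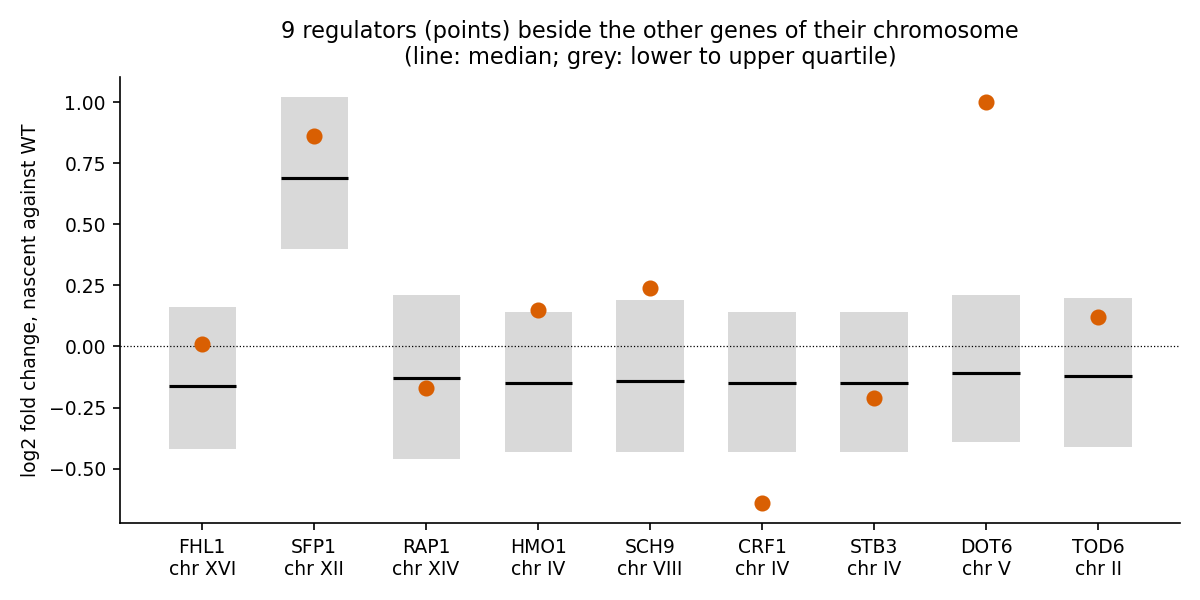
Log2 fold change in nascent *ulp2Δ* against WT for 9 regulators (points) beside the other tested genes of the same chromosome (line, median; grey bar, lower to upper quartile). *SFP1* at 0.86 lies within the bar of chromosome XII, while *DOT6* at 1.00 and *CRF1* at -0.64 lie outside the bars of chromosomes V and IV. *SCH9* at 0.24 and *HMO1* at 0.15 lie narrowly above the bars of chromosomes VIII and IV, whose upper quartiles are 0.19 and 0.14.

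*RAP1* (YNL216W, chrXIV:241689-244172, plus strand), the general factor that binds ribosomal protein promoters, telomeres and silencers, had 77, 84 and 82.9 CPM in WT, 72, 71.1 and 73.7 in nascent cells, 42.4, 39 and 40.3 in line 6 and 44, 47.4 and 44.3 in line 9. The evolved lines were each well below the other groups, and none of the 4 groups overlapped. *RAP1* fell by 0.17 in nascent cells (SE 0.05, adjusted p = 0.0044), by 1.00 in line 6 (SE 0.05, adjusted p = 4.03e-11) and by 0.85 in line 9 (SE 0.05, adjusted p = 8.12e-10). Line 6 was lower than line 9 by a log2 difference of -0.16 (SE 0.05, adjusted p = 0.0118), which without line 9 replicate 2 became -0.12 (adjusted p = 0.0723). The nascent call was lost with library totals (-0.02, adjusted p = 0.682) and with scaling factors computed without chromosomes I and XII and the mitochondrial genome (-0.09, adjusted p = 0.11). In line 6 *RAP1* was 0.98 below the median of the other genes of chromosome XIV, where 9.7% of them were lower still.

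*HMO1* (YDR174W, chrIV:812110-812850, plus strand), whose HMG-box product binds ribosomal DNA and many ribosomal protein promoters, had 224, 216 and 214 CPM in WT, 243, 240 and 242 in nascent cells, 368, 371 and 354 in line 6 and 291, 298 and 308 in line 9. The groups formed 4 separate levels in the order WT, nascent, line 9 and line 6. *HMO1* rose by 0.15 in nascent cells (SE 0.03, adjusted p = 0.000873), 0.74 in line 6 (SE 0.03, adjusted p = 1.43e-11) and 0.45 in line 9 (SE 0.03, adjusted p = 1.16e-08). It was higher in line 6 than in line 9 by 0.29 (SE 0.03, adjusted p = 2.13e-06). *HMO1* and *RAP1* thus changed in opposite directions in both evolved lines, and over the 12 libraries their log2 levels had a Pearson r of -0.97, which rests largely on the 4 group means and is given as a description.

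*SCH9* (YHR205W, chrVIII:509363-511837, plus strand), which encodes a protein kinase, had 169, 166 and 169 CPM in WT, 199, 190 and 206 in nascent cells, 210, 207 and 204 in line 6 and 200, 194 and 206 in line 9. Every *ulp2Δ* library was above every WT library, and the 3 *ulp2Δ* groups overlapped one another. *SCH9* rose by 0.24 in nascent cells (SE 0.03, adjusted p = 1.58e-05), 0.30 in line 6 (SE 0.03, adjusted p = 1.18e-06) and 0.25 in line 9 (SE 0.03, adjusted p = 1.33e-05). Among the *ulp2Δ* strains its differences were 0.06 for line 6 and 0.01 for line 9 against nascent cells and 0.05 between the lines (SE 0.03 each), none past the threshold. Their sign turned under other scalings, and with library totals *SCH9* differed from nascent cells in line 6 and line 9 by -0.19 (adjusted p = 0.000111) and -0.17 (adjusted p = 0.000323).

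The 4 repressors also did not move as one. *CRF1* (YDR223W, chrIV:912099-913502, plus strand), the paralog of *IFH1* that can take its place on Fhl1 when TORC1 is inhibited, had 30.2, 27.3 and 29.9 CPM in WT, 17.9, 19.3 and 19.2 in nascent cells, 41.6, 41.5 and 42.3 in line 6 and 31.5, 31.2 and 30.9 in line 9. Nascent libraries were lowest and line 6 libraries highest, and line 9 lay narrowly above WT, with no overlap between any groups. *CRF1* fell by 0.64 in nascent cells (SE 0.06, adjusted p = 1.22e-07) and rose by 0.52 in line 6 (SE 0.06, adjusted p = 7.91e-07), and its log2 fold change in line 9 was 0.10 (SE 0.06, adjusted p = 0.152). Line 6 exceeded nascent cells by 1.15 (SE 0.06, adjusted p = 6.03e-11) and line 9 by 0.42 (SE 0.06, adjusted p = 1.4e-05). In the fit of all 12 libraries with TMM scaling, the first was the largest difference between any 2 groups for the 9 regulators without *IFH1*. These calls of *CRF1* were the same under all alternatives tried, while the first value ran from 0.90 to 1.16, so its rank was not fixed.

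*STB3* (YDR169C, chrIV:792348-793889, minus strand), the RRPE-binding repressor, had 139, 138 and 145 CPM in WT, 121, 120 and 123 in nascent cells, 168, 174 and 185 in line 6 and 178, 165 and 166 in line 9. Nascent libraries were below and evolved libraries above all WT libraries, and the evolved lines overlapped. *STB3* fell by 0.21 in nascent cells (SE 0.04, adjusted p = 0.000393) and rose by 0.32 in line 6 (SE 0.04, adjusted p = 5.18e-06) and 0.27 in line 9 (SE 0.04, adjusted p = 4.5e-05). The nascent call was lost with library totals (-0.06, adjusted p = 0.272). The lines differed by 0.05 (SE 0.04, adjusted p = 0.313), and over the 12 libraries *STB3* and *CRF1* had a Pearson r of 0.91, again as a description.

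*DOT6* (YER088C, chrV:333176-335188, minus strand) and *TOD6* (YBL054W, chrII:117589-119166, plus strand) encode paralogous Myb-like repressors that bind PAC and recruit the Rpd3L histone deacetylase. *DOT6* had 584, 608 and 565 CPM in WT, 1154, 1167 and 1195 in nascent cells, 955, 1017 and 981 in line 6 and 794, 770 and 787 in line 9. The 4 groups formed separate levels, with every *ulp2Δ* library above every WT library. *DOT6* rose by 1.00 in nascent cells (SE 0.04, adjusted p = 3.4e-12), 0.75 in line 6 (SE 0.04, adjusted p = 5.04e-11) and 0.42 in line 9 (SE 0.04, adjusted p = 9.56e-08), and line 6 exceeded line 9 by 0.33 (SE 0.04, adjusted p = 1.73e-06). In nascent cells *DOT6* stood above 98.6% of the other genes of chromosome V, whose median was -0.11.

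*TOD6* had 55.7, 59.4 and 62.3 CPM in WT, 65, 65.3 and 62.5 in nascent cells, 34.1, 38.3 and 38 in line 6 and 54.9, 55.1 and 51.4 in line 9. Line 6 was far below the other groups, which lay close together without overlapping. *TOD6* fell by 0.68 in line 6 (SE 0.05, adjusted p = 1.52e-08) and by 0.14 in line 9 (SE 0.05, adjusted p = 0.0329), and its value in nascent cells was 0.12 (SE 0.05, adjusted p = 0.0519). The 2 small values sat at the threshold. The nascent one passed under 8 of 11 alternative settings, among them DESeq2 (0.14, adjusted p = 0.0313) and library totals (0.27, adjusted p = 0.000859), and without WT replicate 3, nascent replicate 3, line 6 replicate 1 or line 9 replicate 1 or 3 (0.12 to 0.16, adjusted p of 0.0187 to 0.0483). The line 9 one failed under 3 of the 11, among them DESeq2 (-0.11, adjusted p = 0.112), and without WT replicate 2 or 3, nascent replicate 2 or line 9 replicate 1 or 3 (-0.14 to -0.10, adjusted p of 0.0521 to 0.14). Line 6 was lower than line 9 by a log2 difference of -0.55 (SE 0.05, adjusted p = 4.53e-07).

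**Figure D3:**
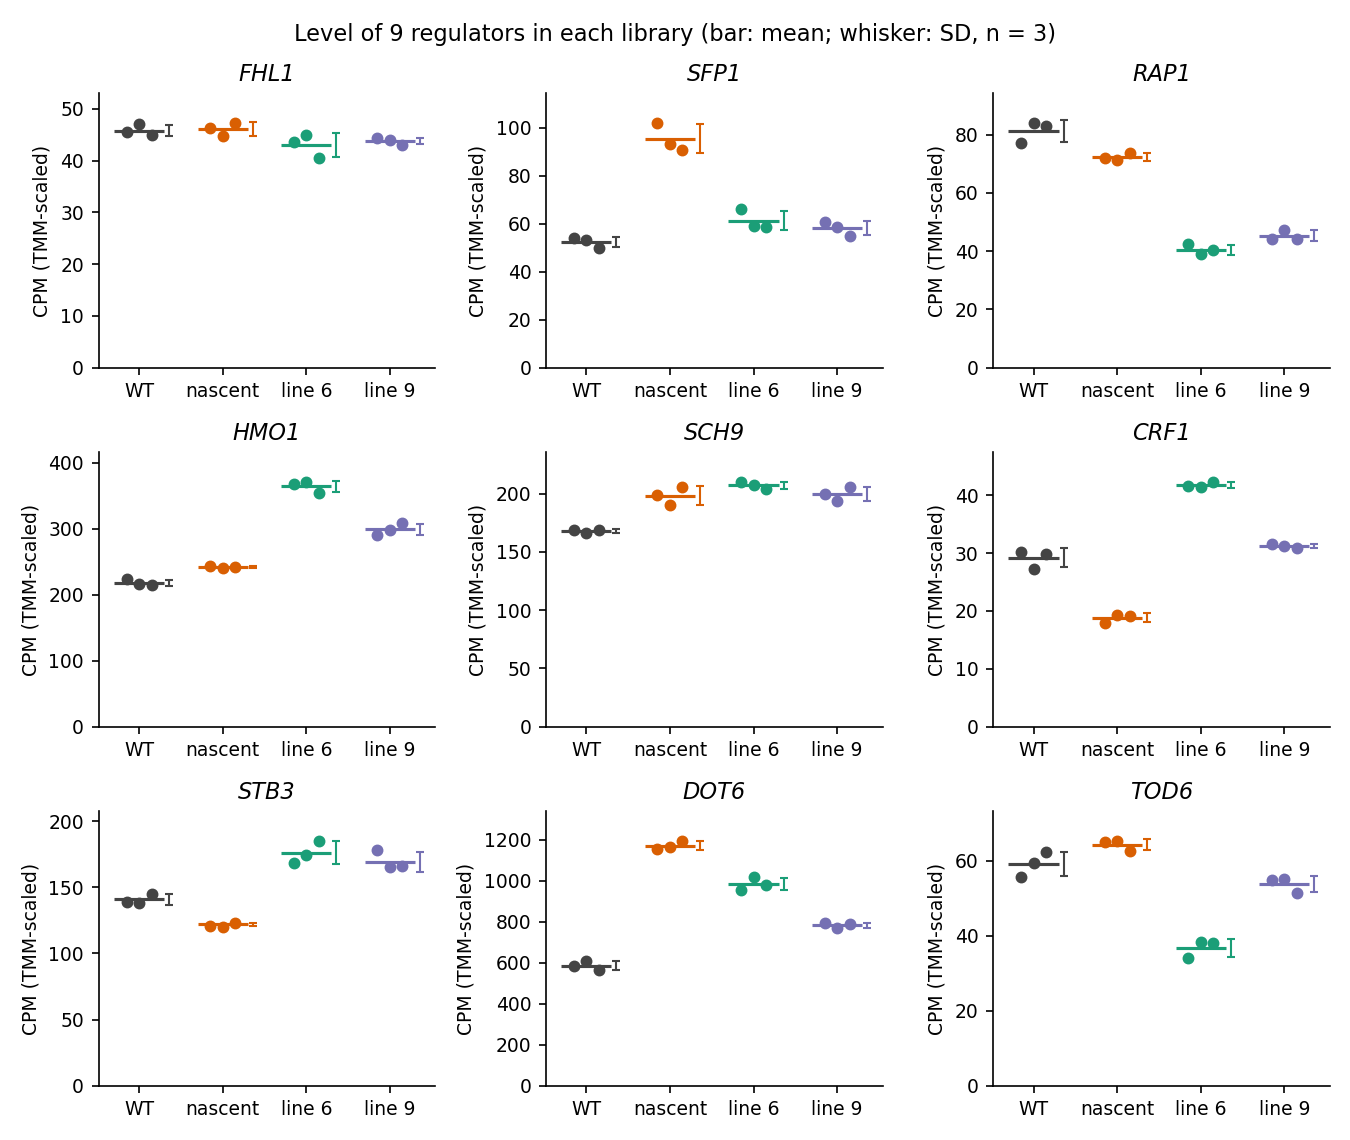
Level of 9 regulators in each of the 12 libraries, in TMM-scaled CPM (points, libraries; bar, mean; whisker, SD of 3 libraries). *DOT6* lies between 1154 and 1195 in nascent cells and at most at 608 in WT, and *TOD6* lies at most at 38.3 in line 6 and at least at 51.4 elsewhere.

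The paralogs *DOT6* and *TOD6* therefore shifted against each other, which a ratio within each library shows without any scaling. The log2 ratio of *DOT6* to *TOD6*, per coding length, was 3.04, 3.00 and 2.83 in WT, 3.80, 3.81 and 3.90 in nascent cells, 4.46, 4.38 and 4.34 in line 6 and 3.5, 3.45 and 3.58 in line 9. *DOT6* exceeded *TOD6* in every library, 7.77-fold at the WT mean, 14.29-fold in nascent cells, 21.0-fold in line 6 and 11.43-fold in line 9. Nascent cells exceeded WT by 0.88, line 6 by 1.43 and line 9 by 0.56, with no overlap (exact permutation test, two-sided, p = 0.1 each, the smallest that 3 libraries against 3 allow). In nascent cells the ratio rose with *DOT6* high and *TOD6* near its WT level, and in line 6 with *DOT6* high and *TOD6* low. The ratio of *IFH1* to *CRF1* followed the split of *IFH1*, with a log2 value of -5.83, -5.75 and -6.10 in WT and 3.46, 1.18, 1.54 and 1.28 in the 4 libraries with high *IFH1* counts.

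**Figure D4:**
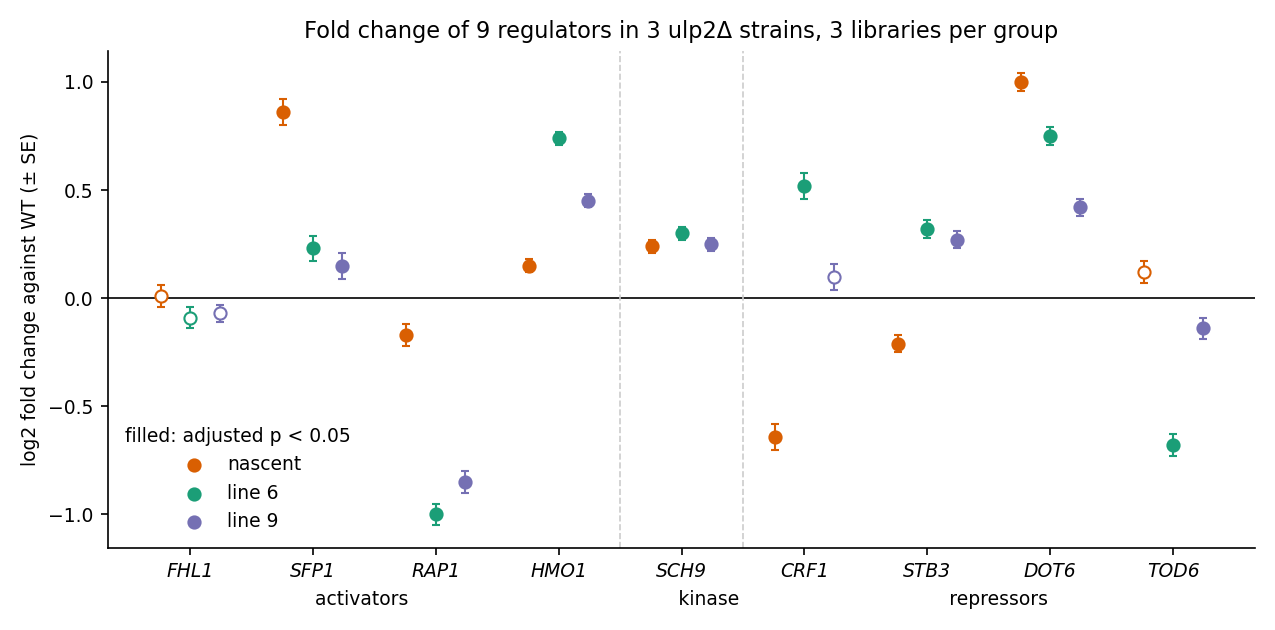
Log2 fold change against WT with its SE for 9 regulators in the 3 *ulp2Δ* strains (3 libraries per group; filled points passed the test, open points did not; *IFH1* is left out because its counts are split within groups). *RAP1* at -1.0 and -0.85 and *HMO1* at 0.74 and 0.45 lie on opposite sides of 0 in line 6 and line 9, and *CRF1* changes sign from -0.64 in nascent cells to 0.52 in line 6.

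Levels of different genes were compared per kilobase of coding length. In WT the order was *HMO1* (294 ± 6.59 CPM per kb, SD, n = 3), *DOT6* (291 ± 10.5), *STB3* (91.1 ± 2.67), *SCH9* (67.8 ± 0.58), *TOD6* (37.5 ± 2.09), *RAP1* (32.7 ± 1.5), *SFP1* (25.6 ± 1.1), *CRF1* (20.8 ± 1.13) and *FHL1* (16.3 ± 0.398). Libraries of *HMO1* and *DOT6* overlapped in WT, and those of all other neighbours in that order were apart. *IFH1* was left out of the order because its counts are split. In nascent cells *DOT6* led with 582 ± 10.4 against 326 ± 1.58 for *HMO1*, and *CRF1* was last among the 9 with 13.4 ± 0.561. In line 6 *HMO1* (492 ± 11.9) and *DOT6* (489 ± 15.3) overlapped again, and *RAP1* (16.3 ± 0.687) had dropped to the level of *FHL1* (15.3 ± 0.826), with overlapping libraries.

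The known target genes of these regulators were read from the same fit. Among the 137 ribosomal protein genes, nascent cells showed a median log2 difference from WT of 0.48 (130 higher, 2 lower), line 6 one of -1.62 (all 137 lower) and line 9 one of -0.71 (1 higher, 132 lower), where all tested genes had medians of -0.03, -0.01 and -0.01. Their summed counts were 3.41 to 3.5% of the TMM-scaled library size in WT and 5.13 to 5.23% in nascent cells. In line 6 they were 1.24 to 1.27% and in line 9 2.16 to 2.31%. That size differs from the total of a library's counts, so these values are not shares of the counts. The 142 biogenesis genes did not follow them in nascent cells, with a median of -0.33 (20 higher, 99 lower), and were lower in line 6 (median -1.25, 139 lower) and line 9 (median -0.62, 128 lower). Leaving *IFH1* aside, *DOT6*, *SFP1* and narrowly *TOD6* had their highest levels of the 4 groups in nascent cells, and *CRF1* and *STB3* their lowest. *FHL1* also had its highest mean there (46.1 CPM), with overlapping libraries. Ribosomal protein genes were mostly higher in nascent cells and biogenesis genes mostly lower. In line 6, *CRF1* and *HMO1* had their highest and *RAP1* and *TOD6* their lowest levels, and both target sets were lower. The means of *STB3* (176 CPM) and *SCH9* (207 CPM) were also highest in line 6 and that of *FHL1* (43.1 CPM) lowest, each overlapping another group. A link between the regulators' levels and those of the target genes was not tested.

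Within the biogenesis genes, those with PAC were compared with those without as a description, with no test. The median in line 6 was -1.40 for the 90 with PAC and -1.03 for the 52 without, and in nascent cells the values were -0.38 and -0.20. In line 9 they were -0.62 and -0.60. The 62 with both PAC and RRPE had a median of -1.5 in line 6, the 28 with PAC only -1.32, the 37 with RRPE only -1.10 and the 15 with neither -0.93. In line 9 the same 4 sets had -0.67, -0.56, -0.61 and -0.58. Outside both target sets, the median in line 6 was -0.46 over 90 genes that held both elements and 0.05 over 4775 that held neither. The ribosomal protein genes with the Rap1 element (29) and without it (108) had medians of -1.64 and -1.58 in line 6 and 0.41 and 0.48 in nascent cells, and those with and without the Fhl1 element (21 and 116) had -1.54 and -1.62 in line 6. The Rap1 spelling matched only 21.2% of ribosomal protein promoters, and the Fhl1 spelling 15.3% (10.9% of all promoters). A gene without a match can still be bound, so these splits do not separate bound from unbound genes. Leaving out genes of chromosomes I and XII, a choice made after seeing the data, gave medians of 0.45, -1.63 and -0.73 for ribosomal protein genes and -0.39, -1.29 and -0.62 for biogenesis genes in the same 3 comparisons.

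**Figure D5:**
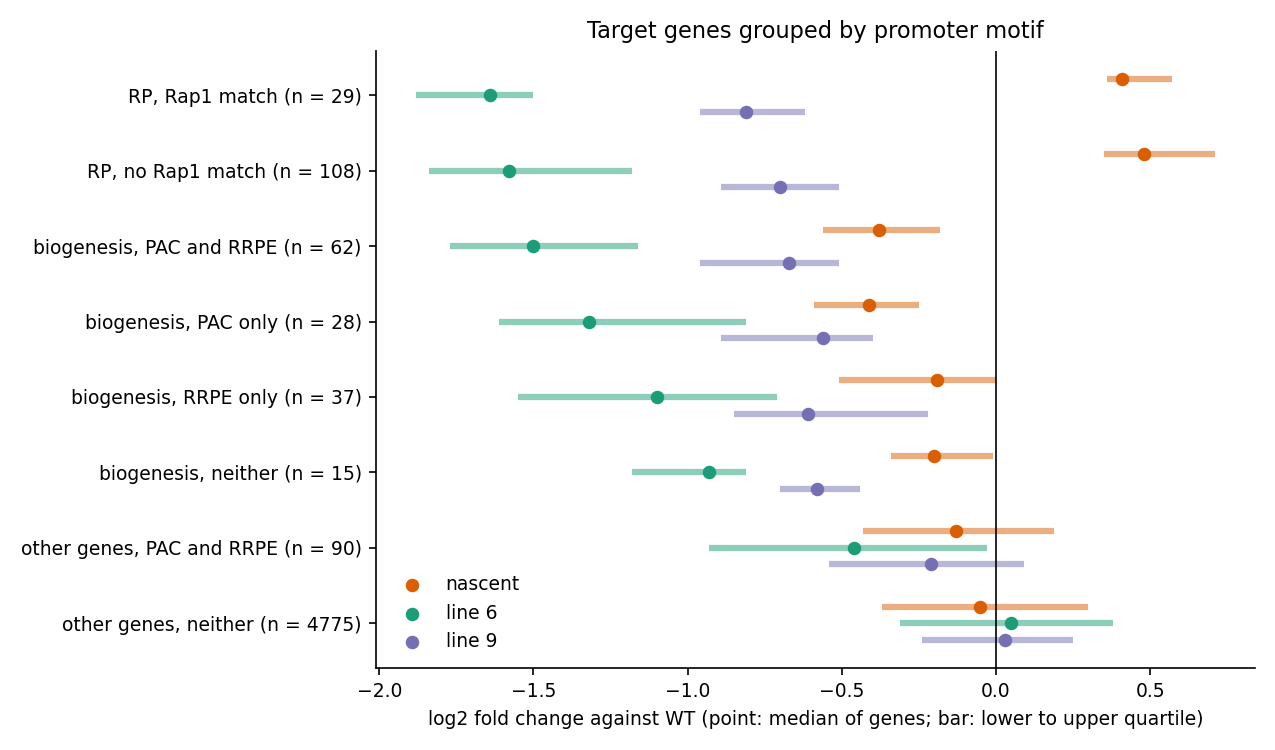
Log2 fold change against WT of target genes grouped by promoter element (points, median of genes; bars, lower to upper quartile; n, number of genes). Biogenesis genes in line 6 run from -1.5 with PAC and RRPE to -0.93 with neither, and ribosomal protein (RP) genes lie at 0.41 to 0.48 in nascent cells and at -1.64 to -1.58 in line 6 with or without a match to the Rap1 spelling. Most RP genes hold no match to that spelling, and a gene without a match can still be bound.

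Other genes of the same pathways were counted from lists. Of 42 TORC1 and protein kinase A signalling genes, nascent cells had 16 higher and 18 lower, line 6 had 24 and 9, and line 9 had 22 and 9, where 33.6% and 39.7%, 36.8% and 37.2%, and 32.5% and 33.9% of all tested genes were higher and lower. The same shares are the background of the next lists. *KNS1*, a LAMMER kinase that acts downstream of TORC1 and lies on chromosome XII, alone passed 2-fold against WT among them, with log2 fold changes of 1.10 (SE 0.05, adjusted p = 1.23e-11), 0.52 and 0.40. The Rpd3L list of 12 subunits, the corepressor that Dot6 and Tod6 recruit, had 5 higher and 5 lower both in nascent cells and in line 6, whereas line 9 had 4 and 3. Of 28 other partners and promoter factors, nascent cells had 9 higher and 14 lower, line 6 had 6 and 13, and line 9 had 7 and 13. *ABF1*, a general promoter factor of the same class as *RAP1*, was the only one past 2-fold against WT, with group means of 91.4 CPM in WT and 82.4 in nascent cells against 39.8 in line 6 and 49.8 in line 9. It fell by 0.15 in nascent cells (adjusted p = 0.0102), by 1.20 in line 6 (SE 0.05, adjusted p = 5.69e-12) and by 0.88 in line 9 (SE 0.05, adjusted p = 5.97e-10), so both general factors were low in both evolved lines.

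A list of 20 genes that are known to rise under general stress and late in growth was also counted. They summed to 34654 to 35959 CPM in WT, 25374 to 26027 in nascent cells, 46215 to 47374 in line 6 and 32583 to 34381 in line 9, with 7, 16 and 7 members higher and 13, 3 and 5 lower in nascent cells, line 6 and line 9. Their median log2 fold changes were -0.25, 0.67 and 0.01. The small heat shock gene *HSP26*, with a mean of 8230 CPM in WT, fell by 1.47 in nascent cells (SE 0.04, adjusted p = 8.17e-14) and by 0.16 in line 6 (adjusted p = 0.000958). *HSP42* rose by 0.99 in nascent cells (SE 0.03, adjusted p = 1.11e-12) and by 1.46 in line 6 (SE 0.03, adjusted p = 9.31e-15). *YGP1*, a secreted glycoprotein of starved cells, fell by 1.52 in nascent cells (SE 0.04, adjusted p = 1.59e-13) and by 0.48 in line 6 (adjusted p = 3.69e-08). *RTN2* fell by 1.21 in nascent cells (SE 0.04, adjusted p = 3.23e-13) and rose by 0.79 in line 6 (SE 0.04, adjusted p = 1.44e-11). In line 9 the log2 fold changes were -0.45 for *HSP26*, 0.38 for *HSP42*, 0.16 for *YGP1* and -0.2 for *RTN2*. *HSP26* and *YGP1* were among the 3 members lower in line 6, where 16 were higher. The sum was lowest in nascent cells and highest in line 6, as were the means of *CRF1* and *STB3*, though *STB3* libraries of the 2 evolved lines overlapped. In line 9 the sum lay below that of WT. The line 9 means of *CRF1* (31.2 against 29.2 CPM) and *STB3* (169 against 141 CPM) lay above those of WT. The part of growth state in the regulators' levels was not tested.

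For each regulator the genes with the most similar pattern were taken by Pearson r of log2 CPM over the 12 libraries among 5396 genes, as a description, since 12 libraries in 4 groups share their group means. *RAP1* was nearest to *SEO1* (r = 0.995) and *CSI2* (0.991), *HMO1* to *AFG1* (0.995) and *AIM46* (0.993), and *CRF1* to *CPR5* (0.997) and *GRX1* (0.996). *SFP1* was nearest to *SWD1* (0.989), a chromosome I gene, and *OPY2* (0.987), and *DOT6* to *ORM2* (0.991) and *VPS34* (0.990), both on chromosome XII. *TOD6* was nearest to the ribosomal protein gene *RPL19A* (0.981) and to *ATG10* (0.979). *STB3* was nearest to *MBP1* (0.985) and *MFB1* (0.984), and *SCH9* to *STE13* (0.978) and *UBP9* (0.969). *FHL1*, with almost no change between groups, reached 0.85 with *VAC7* and 0.826 with *CSA1*, and *IFH1*, with its split counts, only 0.727 with *NUP49* and 0.713 with *CDC40*.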

How the data were processed

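RNA was sequenced as paired ends. Per the study's methods, the authors trimmed reads with Trim Galore (0.5.0), mapped them to sacCer3 with HISAT2 (2.1.0), quantified genes with StringTie (1.3.3b) on SGD gene models and tested them with DESeq2 (1.22.1). The deposited table gives raw whole-number counts for each gene. How those counts were derived and whether strand was used are not given in the sources used here.

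Unnamed loci (6, with 0.0826 to 0.173% of counts) were left out. Symbols, positions and promoters came from RefSeq R64, in which 6011 of 7108 named features were matched. Counts were scaled by TMM and fitted with edgeR (4.0.16, R 4.3.3) by its quasi-likelihood test after filterByExpr, with all 12 libraries in 1 fit, a mean per group and no covariate, in 6 contrasts. Adjusted p-values are Benjamini-Hochberg over 6372 genes. The pipeline was tested on simulated data. Libraries are numbered replicates that no source describes as separate cultures, so p-values measure only the spread between these samples, and no 2 libraries of a group agreed within sampling noise. The 10 regulators, gene lists and tests were chosen with earlier results of these data known. All regulators are named in all contrasts; from each other list, up to 4 genes with the largest change of 2-fold or more against WT; and for each regulator the 2 genes of at least 10 mean CPM with the highest r. Alternatives were DESeq2 (1.42.0), limma voom (3.58.1), other scalings and filters, a replicate block, 2-group fits, and leaving out each library.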

Additional observations from a re-analysis of the deposited data

Results flagged for a closer look

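For 5 regulators the change from WT differed between the evolved lines by the direct test of line 6 against line 9 (edgeR quasi-likelihood, Benjamini-Hochberg adjusted). *TOD6* differed by -0.55 (-0.68 in line 6, -0.14 in line 9), *CRF1* by 0.42 (0.52 and 0.10), *DOT6* by 0.33 (0.75 and 0.42), *HMO1* by 0.29 (0.74 and 0.45) and *RAP1* by -0.16 (-1.0 and -0.85). In each the 3 libraries of line 6 lay apart from the 3 of line 9 (57.6% of tested genes passed this test in either direction, and the libraries of 62.3% lay apart), and in each the value of line 6 was farther from WT. The *RAP1* difference was lost without line 9 replicate 2 (-0.12, adjusted p = 0.0723). Each line is 1 evolved population, so line and evolution cannot be told apart from any other difference between these cultures.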

How the results depend on the processing

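For the 9 regulators besides *IFH1*, 54 log2 fold changes were recomputed under 11 alternative settings and without each of the 12 libraries. Of the 1242 values, 1178 kept their direction and their side of the threshold, 20 lost and 28 gained a call in the same direction, and 16 changed sign. Of the 54 changes, 38 were the same throughout. No called value of these 9 changed sign. With library totals, however, *SCH9* passed with the changed sign in line 6 and line 9 against nascent cells (adjusted p = 0.000111 and 0.000323). With library totals the median of all genes was 0.122 in nascent cells and -0.11 in line 6 against WT and -0.251 in line 6 and -0.183 in line 9 against nascent cells, where TMM gave -0.025, -0.008, -0.001 and -0.003, and they left 1 regulator lower in nascent cells in place of 3. With library totals, *SCH9* had -0.19 in line 6 and -0.17 in line 9 against nascent cells and -0.02 between the lines, and *STB3* had -0.02 between the lines. With TMM factors from genes outside chromosomes I, XII and the mitochondrial genome, *SCH9* had -0.03 and -0.07 against nascent cells. In line 9 against nascent cells it had -0.02 without ribosomal genes in the factors, 0.00 with no filter and -0.01 with at least 10 counts in every library. Under limma voom *IFH1* had 1.32 in line 9 against nascent cells.

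In line 9 against WT, 1 regulator was lower in place of 2 with DESeq2, with its size factors in edgeR and in the fit of only the 2 groups, in each of which *TOD6* lost its call. With a 2-fold threshold as well, the counts higher and lower were 2 and 0 for nascent cells, 0 and 1 for line 6 and 1 and 0 for line 9 relative to WT, 1 and 0 for line 6 and 0 and 0 for line 9 relative to nascent cells, and 0 and 0 between the lines. Without *IFH1* and *SFP1*, chosen after seeing the data, 3 of 8 were higher in nascent cells. TMM factors without features split within a group, also added after seeing the data, changed no call. Leaving out 1 library at a time gave 1 to 2 regulators lower in line 9 against WT and 1 to 3 lower in line 6 than in line 9. For *FHL1* it gave -0.01 to 0.06 in nascent cells and -0.06 to 0.02 between the lines, for *SCH9* 0.00 to 0.07 in line 6 and -0.04 to 0.03 in line 9 against nascent cells, and for *IFH1* -7.10 to 5.71 and -0.96 to 6.54 in the same comparisons. The log2 ratio of *IFH1* to *CRF1* differed by -0.43 to 3.38 in line 6 from WT, and by -4.15 to 1.16 in line 6 and -0.37 to 3.90 in line 9 from nascent cells. That of *DOT6* to *TOD6* kept its direction in all 36 leave-outs. A promoter window from 250 bases before to 50 after the start kept 75 of 90 target medians within 0.0594. That value was the largest SD between replicates, in any group, of the median level of ribosomal protein or biogenesis genes. In that window the Rap1 element was in 4.38% of ribosomal protein promoters (6 genes) and 1.03% of all, and PAC in 2 of the 10 regulators.

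The replicate numbers did not pair the libraries: same-numbered libraries deviated together with r of -0.19 to 0.1 over 18 pairs. With the replicate number as a block, the counts of regulators higher and lower were 5 and 3 in nascent cells, 7 and 2 in line 6 and 6 and 2 in line 9, *IFH1* in line 6 being the added call (5.85, adjusted p = 0.0385), and no other call changed. The limits lie in 3 libraries per group, 1 population per evolved line, and counts whose assignment to genes is not described.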
